A study of Mus musculus with 32 samples.

Results

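Skeletal muscle sarcomere genes were measured in 4T1-Luc mouse mammary tumours. As members, 43 genes were listed by their known role in striated muscle, with earlier results of these data known. Of these, 42 had a probe among the 20145 genes that could be named on the arrays. Smpx had no matching probe. The tumours were grown from 4T1-Luc, a luciferase-marked carcinoma line, in the third mammary fat pad of 8-week-old female Balb/C mice, and after 1 week of establishment the mice received 40 mg/kg sunitinib, a receptor tyrosine kinase inhibitor, or its PBS and DMSO vehicle. At 1300 mm3 each tumour was digested and split: cells caught on PECAM-1 antibody beads gave the endothelial fraction, called EC here, and the remaining tissue is called bulk; each fraction had 4 arrays from vehicle mice, 4 from sunitinib mice called sensitive and 4 from sunitinib mice called resistant by their growth up to day 8. Bulk tumours taken at day 9 or at 600 mm3 had 2 arrays from sunitinib mice, labelled sensitive, and 2 from vehicle mice each. Every group shared the strain, sex, age and implanted line, and each array was 1 mouse, so n below counts mice.

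Contraction in a skeletal muscle fibre is driven by myosin thick filaments pulling on actin thin filaments, and the troponin complex on the thin filament answers to calcium released from the sarcoplasmic reticulum. Fast and slow fibres use different genes for the myosin heavy chains, troponin subunits and myosin-binding proteins, while titin, nebulin, the actinins and other Z-disc proteins build the frame. The carcinoma cells themselves form no sarcomeres, and skeletal muscle lies close to the mammary fat pads.

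The members were grouped by role into 12 fast fibre genes, 6 slow fibre genes, 10 measured genes of the shared sarcomere, 4 of calcium handling, 5 of metabolism, 2 atrophy ligases and 3 myogenic factors. Values are log2 signal relative to the 75th percentile of the array, so a level of 0 is as bright as that percentile, and levels of different probes were not compared. A probe was called well above background by the scanner software on each array. A gene was called changed when its limma p, adjusted by Benjamini-Hochberg over all genes of the comparison, was under 0.05. Where no array of a group measured the gene above background, at most a bound is given ("at least N-fold"), computed from the dimmest signal that was above background on those arrays. A fitted difference printed for such a gene rests on those dim values and is not a measured size. The bounds are approximate, since a probe brighter than that dimmest signal can still be below background.

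Promoters of 4 members are printed first because their genes gave some of the largest differences between the smaller tumours and carry matches to motifs of muscle transcription factors. Each runs 5′ to 3′ on the gene's own strand over 300 bases, 250 before and 50 after the RefSeq start in build GRCm38.p6. Capitals mark a match to the MEF2 motif or to the CArG box, the site of serum response factor. Myh4 encodes the fast type 2B myosin heavy chain and lies at chr11:67237562-67237861, plus strand; its MEF2 match starts at base -182 from the start and its CArG match at -104. Acta1, skeletal muscle actin, lies at chr8:123894726-123895025, minus strand, with a CArG match at -73. Myoz2, a calcineurin-binding Z-disc protein of slow fibres, lies at chr3:123034938-123035237, minus strand, with a MEF2 match at -33. Ttn, titin, lies at chr2:76982498-76982797, minus strand, with a MEF2 match at -166.
Myh4: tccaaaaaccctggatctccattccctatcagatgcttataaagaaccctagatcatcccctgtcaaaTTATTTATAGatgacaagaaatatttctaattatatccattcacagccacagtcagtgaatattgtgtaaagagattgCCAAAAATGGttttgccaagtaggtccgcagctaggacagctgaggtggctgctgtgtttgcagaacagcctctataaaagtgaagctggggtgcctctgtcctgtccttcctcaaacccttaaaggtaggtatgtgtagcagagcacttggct
Acta1: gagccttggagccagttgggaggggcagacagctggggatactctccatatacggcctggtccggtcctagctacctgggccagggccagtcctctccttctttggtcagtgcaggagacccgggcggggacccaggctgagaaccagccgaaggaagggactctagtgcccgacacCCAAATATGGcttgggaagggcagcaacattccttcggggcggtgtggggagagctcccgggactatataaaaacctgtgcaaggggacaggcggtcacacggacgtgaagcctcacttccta
Myoz2: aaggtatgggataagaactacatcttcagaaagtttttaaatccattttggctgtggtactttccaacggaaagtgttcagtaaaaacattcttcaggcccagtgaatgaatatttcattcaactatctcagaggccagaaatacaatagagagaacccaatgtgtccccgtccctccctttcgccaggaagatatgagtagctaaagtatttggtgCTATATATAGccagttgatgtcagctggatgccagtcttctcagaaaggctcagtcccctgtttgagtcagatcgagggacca
Ttn: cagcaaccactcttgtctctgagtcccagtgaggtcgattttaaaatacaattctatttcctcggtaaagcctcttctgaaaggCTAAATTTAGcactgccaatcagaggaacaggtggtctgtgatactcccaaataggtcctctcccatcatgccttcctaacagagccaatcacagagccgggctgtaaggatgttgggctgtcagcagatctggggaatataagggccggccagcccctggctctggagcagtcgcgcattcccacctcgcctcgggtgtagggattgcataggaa

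A promoter entry was found for 33 of the 43 members, with 39 entries in all since some genes have several starts. The MEF2 motif was matched in 6 of these 39 promoters (15.4%), those of Myh1, Myh4, Myoz2, Pvalb, Ttn and Xirp2, against 3.19% of 32851 promoters of the same length. CArG matches lay in 4 promoters (10.3%) of Acta1, Ldb3 and Myh4, against 1.63%. The E-box CANNTG, read by MyoD and myogenin, was matched in 31 (79.5%) against 72.3%, and TATAAA in 7 (17.9%) against 13.6%. Both strands were searched, and the MEF2 match in Myh4 overlaps a TATAAA match. These are matches of letters, not measured sites.

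The 42 members were brightest at day 9. Their median level was 1.87 and 1.11 on the arrays of sunitinib mice and 1.45 and 2.90 on those of vehicle mice at day 9. At 600 mm3 it was 0.63 and -0.09 on the sunitinib arrays but -3.84 and -3.33 on the vehicle arrays. At 1300 mm3 it lay between -2.69 and -0.34 in vehicle bulk, between -2.22 and -1.39 in sensitive bulk and between -3.96 and -0.92 in resistant bulk. In the EC fraction the vehicle arrays lay between -2.44 and -1.64, the sensitive between -2.27 and -1.80 and the resistant between -4.10 and -3.37. All 42 were well above background on each array of day 9 and on both sunitinib arrays of 600 mm3, 35 and 34 on the vehicle arrays of 600 mm3, and 19 to 26 on the EC arrays of resistant mice.

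**Figure D1:**
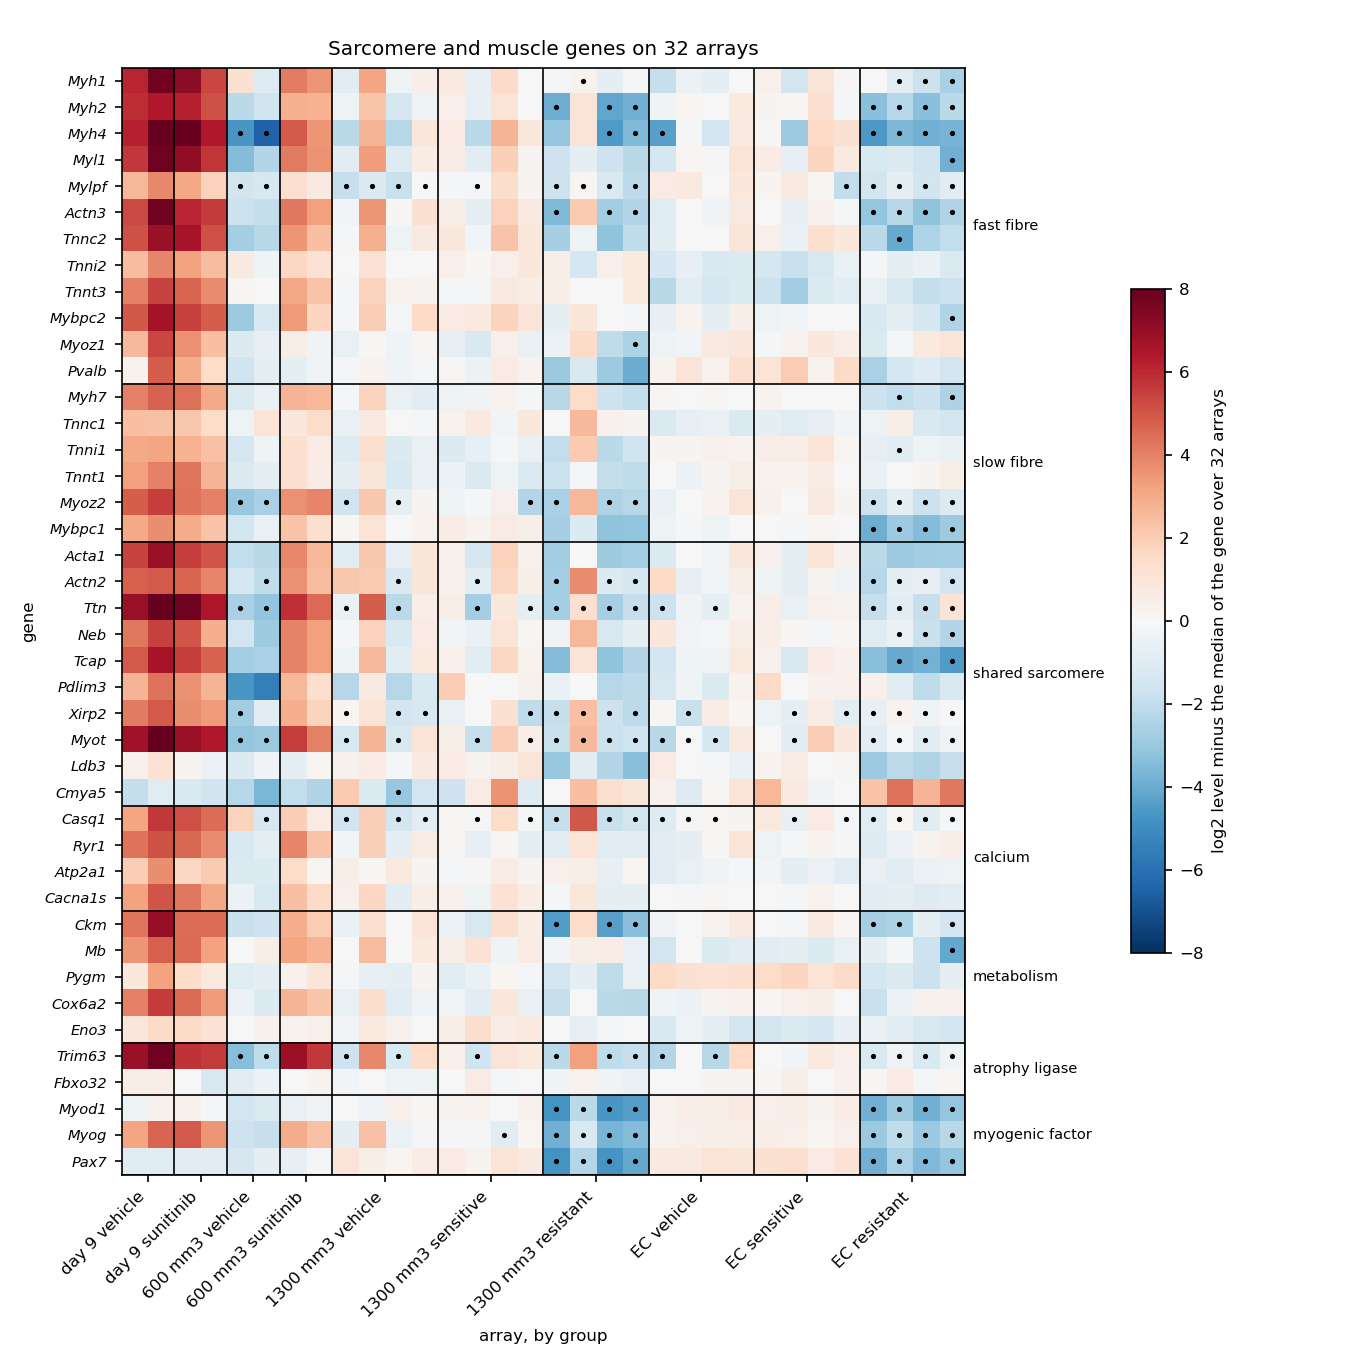
Levels of the 42 measured members (one line of cells each, grouped by role) on all 32 arrays (columns, grouped by fraction, stage and treatment); colour is the log2 level minus the gene's median over the 32 arrays, with the scale ending at 8 in each direction, and a black dot marks a probe not well above background. The 4 day 9 columns and the 2 sunitinib columns of 600 mm3 are mostly red and carry no dots, while the 8 resistant columns carry most of the dots.

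Several facts of the arrays bear on all of these values. The 8 arrays of smaller tumours share 1 slide, the 8 resistant arrays of both fractions share another, and the remaining EC and bulk arrays of 1300 mm3 have a slide for each fraction, so slide cannot be told apart from resistance or from large against small tumours. Outside the resistant slide all sunitinib arrays lie in column 1 of a slide and all vehicle arrays in column 2, so array column and treatment cannot be told apart either. Resistant bulk mouse 2 had a 25th percentile of signal of 183, against 4.38 to 30.0 on the other 31 arrays of the series. Between 64.9% and 91.3% of genes were well above background. The number of arrays limits the precision.

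The first question was how the sarcomere genes changed between day 9 and 600 mm3, with both treatments averaged. They fell as a group: 33 of 42 members were lower at 600 mm3 and none was higher, where 2.71% of 17427 genes tested were lower and 1.49% higher. The members' median difference was -3.60, and that of all genes was 0.07. In bulk tissue, fewer muscle cells and less of these RNAs per cell cannot be told apart. Lower were 11 of 12 fast fibre genes, 5 of 6 slow fibre genes, 8 of 10 genes of the shared sarcomere, 3 of 4 calcium genes, 4 of 5 metabolic genes, 1 of 2 atrophy ligases and 1 of 3 myogenic factors. Leaving out each array in turn gave 25 to 36 lower members. With normexp background correction 34 were lower; over all genes the share of calls that were higher was 35.4%, and 23.5% with normexp.

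Among the fast fibre genes, Myh4 was at 5.87 and 4.15 in sunitinib mice and 3.98 and 6.61 in vehicle mice at day 9. At 600 mm3 it was at 2.64 and 1.30 in sunitinib mice, and at -6.90 and -8.68 in vehicle mice, where neither array measured it above background. All 4 arrays of day 9 lay above all 4 of 600 mm3, and Myh4 was at least 184-fold lower at 600 mm3 (fitted difference -8.06, SE 0.74, adjusted p = 0.00603). Myh2, the fast oxidative type 2A myosin, went from 2.84 and 1.66 with sunitinib and 2.49 and 2.97 with vehicle at day 9 to -0.54 and -0.62 with sunitinib and -5.57 and -4.99 with vehicle, and fell by 5.42 on average (SE 0.30, adjusted p = 0.00138). Here too the stages did not overlap, and the vehicle arrays of 600 mm3 were the lowest.

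Myh1, the type 2X myosin, was at 3.60, 1.77, 2.50 and 4.12 on the sunitinib and vehicle arrays of day 9, and at 0.50 and -0.04 with sunitinib and -2.34 and -4.63 with vehicle at 600 mm3. It fell by 4.63 (SE 0.66, adjusted p = 0.0180), a call lost without vehicle mouse 2 of day 9 or either sunitinib mouse of 600 mm3. Tnnc2, the calcium-binding troponin C of fast fibres, was at 6.56 and 5.11 with sunitinib and 5.08 and 6.86 with vehicle at day 9. It was then at 3.52 and 2.38 with sunitinib and -2.75 and -2.26 with vehicle, and fell by 5.68 (SE 0.51, adjusted p = 0.00558). Both genes kept the same order of groups, with sunitinib tumours of 600 mm3 between the day 9 tumours and the vehicle tumours of 600 mm3.

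Tnnt3, fast troponin T, went from 4.83, 3.99, 4.25 and 5.64 at day 9 to 3.28 and 2.46 with sunitinib and 0.36 and 0.20 with vehicle, and fell by 3.1 (SE 0.37, adjusted p = 0.0109). Mylpf, a fast myosin light chain, was dim throughout: -2.08, -3.32, -2.54 and -1.36 at day 9, and -3.88 and -4.48 with sunitinib at 600 mm3. In vehicle mice of 600 mm3 it was below background, at -6.65 and -6.47. These values lay above the dimmest signal called above background on those arrays (-6.73 and -6.71), so no bound is given. Its fall passed in limma (adjusted p = 0.0114). Pvalb, the calcium buffer parvalbumin of fast fibres, was the member of this group that did not pass the test. Its values ran from -0.06 to 4.50 at day 9 and its difference was -3.25 (SE 0.94, adjusted p = 0.103); its second, dimmer probe gave -6.34.

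Slow fibre genes fell as well. Myh7, the slow myosin heavy chain shared with heart, went from 2.53 and 1.14 with sunitinib and 2.16 and 2.83 with vehicle at day 9 to 0.80 and 0.73 with sunitinib and -3.04 and -2.46 with vehicle. It fell by 3.16 (SE 0.34, adjusted p = 0.00851), and the stages did not overlap. Tnnt1, slow troponin T, went from 4.25, 2.67, 3.25 and 4.02 to 1.34 and 0.56 with sunitinib and -1.19 and -0.82 with vehicle, and fell by 3.58 (SE 0.39, adjusted p = 0.00886). Myoz2 was between -0.83 and 0.68 at day 9, at -1.17 and -0.93 with sunitinib at 600 mm3 and below background with vehicle, at least 13.2-fold lower on average (adjusted p = 0.00138). Tnnc1, the troponin C of slow and heart muscle, did not pass, with 0.09, -0.59, 0.32 and 0.25 at day 9 and -1.20, -0.61, -2.47 and -0.98 at 600 mm3 (difference -1.34, SE 0.35, adjusted p = 0.0851).

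Among the shared genes, Acta1 went from 5.65 and 5.14 with sunitinib and 5.51 and 7.01 with vehicle at day 9 to 3.95 and 2.80 with sunitinib and -1.82 and -2.12 with vehicle, and fell by 5.13 (SE 0.40, adjusted p = 0.00396). Ttn, the molecular spring of the sarcomere, went from 2.70, 1.37, 1.84 and 3.36 to 0.77 and -0.57 with sunitinib and was below background with vehicle, at least 49.4-fold lower on average (fitted -6.24, adjusted p = 0.00398). Its 4 probes gave differences between -6.24 and -2.76. Myot, the Z-disc protein myotilin, was at least 36.8-fold lower (fitted -6.14, adjusted p = 0.00298). Not called were Ldb3 and Cmya5, both Z-disc associated. For each of them a second probe gave a larger difference, -4.18 against -0.85 for Ldb3 and -2.71 against -1.17 for Cmya5.

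The Cmya5 probe used here, the brighter over all 32 arrays, was the dimmer in the small tumours, at -2.84, -3.21, -3.51 and -2.62 at day 9 and -3.58, -4.04, -3.93 and -5.31 at 600 mm3; group means of the other probe ran from 1.72 to -2.55. Of the calcium genes, Atp2a1, the fast fibre pump that returns calcium to the reticulum, went from 0.50, 0.92, 0.84 and 2.54 to 0.33 and -0.97 with sunitinib and -2.31 and -2.24 with vehicle. It fell by 2.50 (SE 0.44, adjusted p = 0.0311), a call lost without mouse 2 of day 9 in either treatment, sunitinib mouse 4 of 600 mm3 or either vehicle mouse of 600 mm3, whereas Casq1, the reticulum's calcium store calsequestrin, had a difference of -3.83 that missed the threshold (adjusted p = 0.0522).

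Ckm, muscle creatine kinase, went from 1.41, 1.41, 1.23 and 3.88 at day 9 to -0.16 and -1.06 with sunitinib and -4.85 and -4.70 with vehicle, and fell by 4.68 (SE 0.55, adjusted p = 0.0105). Cox6a2, the striated muscle subunit of cytochrome oxidase, went from 3.44, 2.29, 2.90 and 4.49 to 1.59 and 1.13 with sunitinib and -1.57 and -2.20 with vehicle, and fell by 3.55 (SE 0.42, adjusted p = 0.0109). Eno3, the muscle enolase of glycolysis, moved far less: 5.54, 5.20, 4.92 and 5.58 at day 9 against 4.27, 4.44, 4.05 and 4.34, and fell by 1.03 (SE 0.20, adjusted p = 0.0419). That call was lost in 7 of 8 fits that left out 1 array; without vehicle mouse 1 of day 9 it was kept. Eno3 was also the metabolic gene whose treatment groups lay closest at 600 mm3.

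Of the 2 atrophy ligases, which tag muscle proteins for the proteasome, 1 fell. Trim63 was at 0.23 and 0.06 with sunitinib and 1.35 and 2.24 with vehicle at day 9, and at 1.33 and 0.10 with sunitinib at 600 mm3, where vehicle mice had it below background. Its stages overlapped through the sunitinib mice, and the average fall was at least 15.7-fold (adjusted p = 0.00513). Fbxo32 was at 0.47, -0.77, 1.05 and 1.04 at day 9 and 0.53, 0.72, -0.32 and 0.07 at 600 mm3, and did not pass (difference -0.20, SE 0.28, adjusted p = 0.722).

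Of the myogenic factors, Myog, which drives the final differentiation of myoblasts, was at 1.07, -0.34, -0.67 and 0.79 at day 9, at -0.90 and -1.50 with sunitinib and at -5.52 and -5.69 with vehicle at 600 mm3. It fell by 3.62 (SE 0.42, adjusted p = 0.0105). Myod1, which commits cells to the muscle line, was at -2.54, -3.06, -3.30 and -2.54 at day 9 and at -3.48, -3.15, -4.41 and -4.06 at 600 mm3 (difference -0.91, adjusted p = 0.0805). Pax7, the marker of satellite cells, was at -3.47, -3.46, -3.52 and -3.52 at day 9 and at -3.20, -2.73, -3.88 and -3.24 at 600 mm3 (difference 0.23, adjusted p = 0.539), so it overlapped between the stages.

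**Figure D2:**
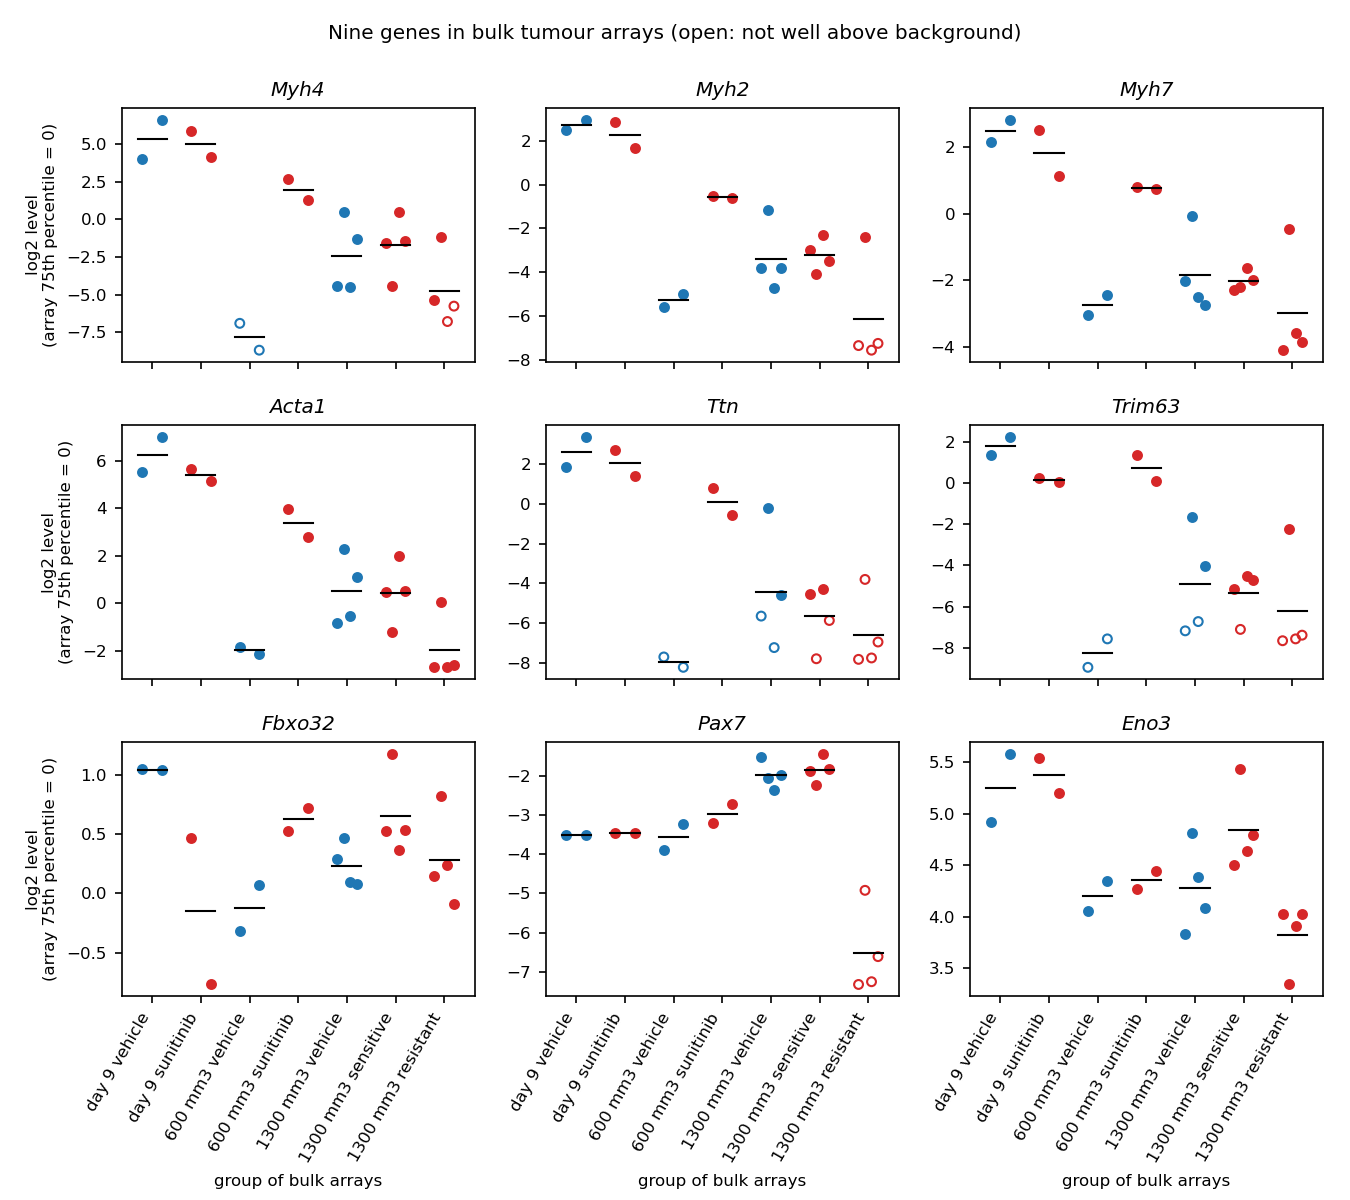
Log2 level relative to the array's 75th percentile of 9 members on all bulk arrays, by stage and treatment; each point is 1 mouse (blue vehicle, red sunitinib), black lines are group means, and open points are not well above background. Myh4, Acta1 and Ttn are highest at day 9 and separate by treatment at 600 mm3, while Pax7 is lower in the small tumours than on the vehicle and sensitive arrays of 1300 mm3.

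Muscle genes outside the list fell too, and they were also chosen with earlier results of these data known. From a list of 45, 29 of 43 tested fell, where 2.71% of all genes were lower. The largest falls were those of Sln (-6.68), a regulator of the calcium pump, the perinatal myosin Myh8 (-6.07) and the M-band protein Myom2 (-5.72). Des stands both in this list and among the smooth muscle and pericyte markers. Markers of other cells were read on the same arrays. The summed level of 7 fibre markers, which are members, was 108 to 414 at day 9, 21.2 to 45.1 with sunitinib and 1.85 to 1.97 with vehicle at 600 mm3, on the linear scale where 1 is the 75th percentile. Of 7 smooth muscle and pericyte markers 4 fell, 1 of 7 endothelial and 1 of 5 heart markers fell, and 0 of 10 adipocyte and 0 of 6 tumour epithelial markers passed in the limma test, in which 3935 genes had an unadjusted p under 0.05. The epithelial sum was 521 to 692 at day 9 and 431 to 750 at 600 mm3. The adipocyte sum was 8.67 to 37.0 at day 9, 2.69 to 2.74 with sunitinib and 10.8 to 15.1 with vehicle at 600 mm3. Their part in the result was not tested.

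The difference between stages was then read in each treatment, in comparisons added after seeing the data. In vehicle mice 30 of 42 members were lower at 600 mm3 than at day 9 and none higher (1.15% of all genes were lower, 0.379% higher), with a median of -5.42. Myh4 was at least 4130-fold lower (adjusted p = 0.00328), Ttn at least 638-fold (adjusted p = 0.00160), Myot at least 369-fold (adjusted p = 0.000883) and Trim63 at least 366-fold (adjusted p = 0.00107). Acta1 fell by 8.23 (SE 0.56, adjusted p = 0.00171). Without vehicle mouse 4 of 600 mm3 19 members were lower, and without vehicle mouse 3 of 600 mm3 there were 20.

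In sunitinib mice 1 of 42 members was lower at 600 mm3 and none higher (0.488% of all genes were lower, 0.339% higher): Myh2 fell by 2.83 (SE 0.42, adjusted p = 0.0471). The members' median was -1.49, and 24 had an unadjusted p under 0.05. The call is lost when no filter on dim probes is used, and also, each in turn, without sunitinib mouse 2 of day 9, either mouse of sunitinib at 600 mm3 or either mouse of vehicle at 600 mm3. Without vehicle mouse 1 of day 9 there were 2 lower members and without vehicle mouse 2 of day 9 there were 3. Casq1 had the most negative difference not called (-3.47, adjusted p = 0.143) and Fbxo32 the most positive (0.78, adjusted p = 0.285).

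Averaged over both stages, as planned, the treatment comparison called 0 members and 0 genes in limma. Whether sunitinib and vehicle tumours differed was also asked at each stage, in comparisons added after seeing the data. At day 9 no member and none of the 17427 genes passed in limma (0% called); 1417 genes and 3 members had an unadjusted p under 0.05. Members' differences ran from -1.65 (Trim63) to 0.38 (Casq1), with a median of -0.56.

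At 600 mm3 20 of 42 members were higher in the sunitinib tumours and none was lower, where 0.499% of all genes were higher and 1.12% lower. Their median difference was 3.38, against 0.04 over all genes. Higher were 6 of 12 fast fibre genes, 3 of 6 slow fibre genes, 8 of 10 shared sarcomere genes, 1 of 4 calcium genes, 0 of 5 metabolic genes, 1 of 2 atrophy ligases and 1 of 3 myogenic factors. In limma 31 members, and 2531 genes in all, had an unadjusted p under 0.05.

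Myh4 was at least 412-fold higher with sunitinib (fitted 9.76, SE 1.05, adjusted p = 0.0154) and Trim63 at least 173-fold (fitted 8.98, SE 0.59, adjusted p = 0.00602). Ttn was at least 113-fold higher (adjusted p = 0.00929), Myot at least 62.0-fold (adjusted p = 0.00602) and Myoz2 at least 50.8-fold (adjusted p = 0.00203). Among genes measured in both groups, Pdlim3, an actinin-binding Z-disc protein, rose by 7.03, the fast light chain Myl1 by 6.75, the titin cap Tcap by 6.29, Acta1 by 5.35 and Myog by 4.40. Ckm (4.17, adjusted p = 0.0554), Cox6a2 (3.25, adjusted p = 0.0535) and Tnnt3 (2.59, adjusted p = 0.0687) missed the threshold. Eno3 had the difference nearest to 0 (0.16, SE 0.29, adjusted p = 0.859).

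With the mouse number as a block 13 members were higher in place of 20. With 2 mice a group this count also rests on single arrays. Without vehicle mouse 3 of 600 mm3 it was 2 members, without vehicle mouse 4 it was 3, without sunitinib mouse 3 of 600 mm3 it was 8 and without sunitinib mouse 4 it was 7. The calls of Myh4, Myl1, Acta1 and Myog were lost without any 1 of these mice, those of Ttn and Pdlim3 without either vehicle mouse, that of Tcap without either vehicle mouse or sunitinib mouse 4, and that of Myot without vehicle mouse 3. Trim63 and Myoz2 were kept in all 8 fits. Of the other muscle genes 17 of 43 were higher, where 0.499% of all genes were, led by Sln (7.52), Myom2 (7.37) and the muscle LIM protein Csrp3 (6.52). On the same arrays 3 of 7 endothelial markers were lower with sunitinib (median level -1.36 and -1.26 against 1.14 and 1.44), 1 of 7 smooth muscle and pericyte markers was higher and 1 lower, and heart and adipocyte markers had 0 calls. The heart marker sum was 5.99 to 8.70 with sunitinib and 1.91 to 2.22 with vehicle, while the median of that list was -2.65 and -2.47 against -2.85 and -2.85. The endothelial sums overlapped, at 11.7 to 23.3 with sunitinib and 18 to 25.8 with vehicle. The smooth muscle and pericyte sum was 7.54 to 11 with sunitinib and 34.8 to 41.1 with vehicle, and the medians of that list overlapped. Their part in the result was not tested.

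**Figure D3:**
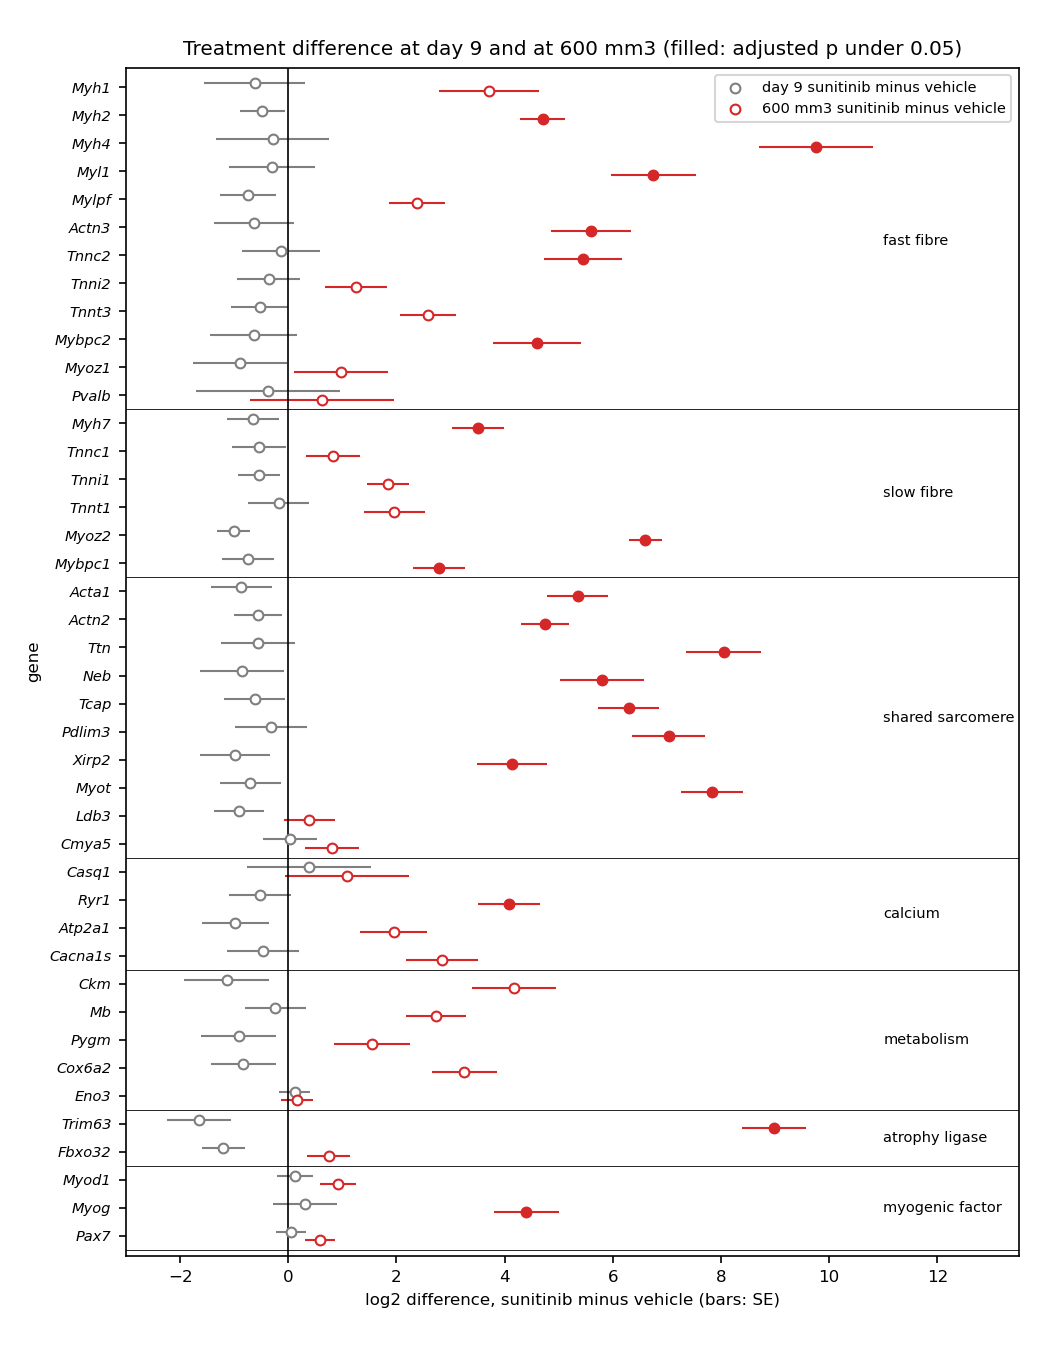
Log2 difference of sunitinib minus vehicle with its standard error for each of the 42 measured members, grouped by role, at day 9 (grey) and at 600 mm3 (red); filled points passed limma's adjusted threshold. Day 9 differences lie between -1.65 and 0.38 with none filled, and the 20 filled points at 600 mm3 are all above 0.

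The difference between the 2 treatment effects was tested directly as an interaction, also added after seeing the data. For 7 of 42 members the effect was more positive at 600 mm3 than at day 9, and for none more negative, where 0.121% of all genes were called more positive and 0.0344% more negative. The ligase Trim63 gave 10.63 (SE 0.83, adjusted p = 0.0184), Ttn 8.61 (SE 0.98, adjusted p = 0.0401), Myot 8.53 (SE 0.81, adjusted p = 0.0215) and Myoz2 7.60 (SE 0.43, adjusted p = 0.00819), all against vehicle arrays of 600 mm3 below background. With bounds in place of those arrays the 4 were at least 543-fold, 167-fold, 101-fold and 102-fold. Tcap gave 6.91 (SE 0.79, adjusted p = 0.0401), the Z-disc actinin Actn2 5.31 (SE 0.63, adjusted p = 0.0451) and Myh2 5.18 (SE 0.59, adjusted p = 0.0401). Myh4 did not pass (adjusted p = 0.0809); its vehicle arrays of 600 mm3 were below background too. With the mouse number as a block, none of the 7 calls was kept: 0 members and 0 genes passed. Leaving out 1 array at a time lost the calls of Myh2 and Actn2 in 8 of 8 fits, those of Ttn and Tcap in 6, that of Myot in 5 and that of Trim63 in 4, while the call of Myoz2 was kept in each.

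This count also rests on single arrays: it was 1 without sunitinib mouse 1 of day 9, sunitinib mouse 2 of day 9, sunitinib mouse 3 of 600 mm3 or vehicle mouse 3 of 600 mm3, 2 without vehicle mouse 4 of 600 mm3, 3 without sunitinib mouse 4 of 600 mm3 and 8 without either vehicle mouse of day 9. Averaged over both stages, 0 members and 0 genes differed between treatments in limma (0% called; 1724 genes and 26 members had an unadjusted p under 0.05), with a members' median of 1.34. Without sunitinib mouse 2 of day 9 that average called 10 members. The split of all calls moved too, with 77.8% higher in the main setting and 63.2% with normexp.

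Tumours of 1300 mm3 were compared with the smaller ones within each treatment, sensitive and vehicle bulk against the average of day 9 and 600 mm3. In sunitinib mice 35 of 42 members were lower in the large tumours and 2 higher, where 14.4% of 18055 genes were lower and 22.3% higher. The median member difference was -3.1. Ttn fell by 6.68 (SE 1.23, adjusted p = 0.00131), followed by Trim63 (-5.80, SE 1.02, adjusted p = 0.000998) and Myot (-5.44, SE 0.91, adjusted p = 0.000737). Pax7 rose by 1.38 (SE 0.22, adjusted p = 0.000574) and Ldb3 by 0.84 (adjusted p = 0.0462, lost in 7 of 16 fits that left out 1 array), but the second Ldb3 probe had a difference of -2.27. With quantile scaling or the deposited values the share of all calls that were higher moved from 60.8% to 47.9% and 44.8%, while members stood at 2 higher with 34 and 35 lower.

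In vehicle mice 12 members were lower and 2 higher in the large tumours (10.9% of all genes lower, 17% higher), with a median of -1.28. The average of the smaller vehicle tumours stands for neither stage. Member medians at 1300 mm3 (-2.69 to -0.34) lay below those of day 9 (1.45 and 2.90) but above those of 600 mm3 (-3.84 and -3.33). Myh1 was 2.89 lower than that average (SE 0.85, adjusted p = 0.0243), with means of 3.31 at day 9, -3.48 at 600 mm3 and -2.98 at 1300 mm3. Casq1 followed (-2.82, SE 0.86, adjusted p = 0.0295), and each of these 2 calls was lost without vehicle bulk mouse 2, 4 or 5 of 1300 mm3, vehicle mouse 3 of 600 mm3 or vehicle mouse 2 of day 9. Mylpf passed as well (adjusted p = 0.00619), but no vehicle array of 1300 mm3 or 600 mm3 measured it above background, so no size is given. Pax7 rose by 1.56 (SE 0.22, adjusted p = 0.000361) and Myod1 by 0.79 (SE 0.21, adjusted p = 0.0161), a call lost without vehicle mouse 1 of day 9 or vehicle mouse 3 of 600 mm3. The number of lower members was 27 without vehicle bulk mouse 3 of 1300 mm3, 5, 6 and 7 without vehicle bulk mice 2, 4 and 5, 3 without vehicle mouse 2 of day 9, and 6 without either vehicle mouse of 600 mm3. The share of all calls that were higher was 61.0%, against 50.0% under quantile scaling and 46.4% in the deposited values. Large and small tumours lay on different slides, so slide and size cannot be told apart.

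Pax7 was higher in the large tumours of vehicle and sensitive mice than in the small ones, which lay on another slide. It was between -2.36 and -1.44 on the 8 vehicle and sensitive bulk arrays of 1300 mm3, above each of the 8 small tumour arrays. On the resistant bulk arrays of 1300 mm3, on a slide of their own with resistant EC, it was below background (-7.32, -4.92, -7.25 and -6.61). Vehicle bulk mouse 3 of 1300 mm3 had a higher member median than the other vehicle mice, with Myh4 at 0.46 against -4.42, -4.52 and -1.31, Acta1 at 2.29 against -0.81, -0.53 and 1.09, and Myog at -1.49 against -4.60, -4.29 and -3.99. The median of the 7 endothelial markers on that array was 1.64, against -2.78 to -2.44 on the other vehicle bulk arrays.

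Within bulk tumours of 1300 mm3, no member and no gene differed between sensitive and vehicle mice (0% of 16875 called by limma; 917 genes and 1 member had an unadjusted p under 0.05). The members' median difference was -0.06, from -1.20 (Ttn) to 1.86 (Pdlim3). Over all 12 bulk arrays the lowest, median and highest levels were -6.78, -3.0 and 0.46 for Myh4, -4.43, -3.67 and -0.46 for Myh1, -4.11, -2.26 and -0.06 for Myh7, -2.64, -1.85 and 0.50 for Tnnc1, and -2.03, -0.94 and 0.92 for Tnnt1. Ckm ran from -7.52 to -1.59, Atp2a1 from -1.80 to -0.39, Cox6a2 from -3.33 to 0.29, and Fbxo32 from -0.09 to 1.18. Fbxo32 and Atp2a1 thus had narrower ranges over the mice than the fibre genes given here.

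Resistant bulk tumours had 6 of 41 tested members lower than vehicle and none higher, where 5.94% of all genes were lower and 1.78% higher, and the median member difference was -1.04. Pax7 was at -7.32, -4.92, -7.25 and -6.61 in resistant mice against -1.52, -2.05, -2.36 and -1.98 in vehicle mice, and Myod1 at -7.63, -5.05, -7.52 and -7.26 against -2.84, -3.13, -2.44 and -2.77. Neither was above background on any resistant array, and the falls were at least 7.0-fold for Pax7 (adjusted p = 0.000152) and 3.98-fold for Myod1 (adjusted p = 0.000412). Myog, also above background on no resistant array, was at least 2.29-fold lower (adjusted p = 0.0185). A gene was tested if 4 bulk arrays of any treatment measured it above background. Pax7, Myod1 and Myog passed that filter only through the vehicle and sensitive arrays. The slow myosin-binding protein Mybpc1 fell by 2.93 (SE 0.43, adjusted p = 0.00160), as did Ldb3 (-2.81, SE 0.46, adjusted p = 0.00333) and Pvalb (-2.68, SE 0.48, adjusted p = 0.00598). Pvalb was at -3.32, -1.58, -3.25 and -4.34 in resistant mice against -0.50, -0.10, -0.68 and -0.48 in vehicle mice. For all 6 the groups did not overlap, though for Pax7, Myod1 and Myog every resistant value was below background. How many of all genes separated in this way was not counted. Other probes differed for 2 of them: the second Ldb3 probe averaged -4.78 in resistant and -6.05 in vehicle bulk, and the second Pvalb probe, above background on 8 of all 32 arrays, -6.74 and -6.36. With the mean of all probes 3 members were called in place of 6. The call of Myog was lost without resistant mouse 1, 3 or 4.

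Against sensitive mice the resistant bulk tumours had 8 members lower and none higher (8.37% of all genes lower, 3.06% higher). These were Pax7 (at least 7.70-fold, adjusted p = 0.000108), Myod1 (at least 4.29-fold, adjusted p = 0.000297), Myog (at least 1.59-fold, adjusted p = 0.0310), Mybpc1, Ldb3, Pvalb, Tnnc2 and Eno3. Here too Pax7, Myod1 and Myog passed the filter only through the vehicle and sensitive arrays. Tnnc2 was at -2.68, -0.44, -3.28 and -2.08 in resistant mice and 0.79, -0.26, 2.27 and 0.90 in sensitive mice, and fell by 3.04 (SE 0.81, adjusted p = 0.0345). Eno3 was at 4.02, 3.34, 3.91 and 4.02 against 4.50, 5.43, 4.64 and 4.79, and fell by 1.02 (SE 0.27, adjusted p = 0.0351). Resistant bulk mouse 2, whose signals stood apart, set the counts: without it 20 members were lower than in vehicle mice and 17 lower than in sensitive mice. Calls over all genes, in either direction, rose too. They went from 1303 of 16875 to 5669 against vehicle mice and from 1929 of 16875 to 6507 against sensitive mice. Leaving out sensitive mouse 4 or 5, or resistant mouse 1, 3 or 4, left 5 members lower than in sensitive mice. Over the 12 fits that left out 1 array, the call of Eno3 was lost in 8 and those of Myog and Tnnc2 in 7 each, for all 3 genes among them the fits without resistant mouse 1, 3 or 4 and without sensitive mouse 4 or 5. With the mean of all probes 5 members were called against sensitive mice in place of 8. The share of all calls that were higher against sensitive mice was 26.7%, and 37.4% with the deposited values.

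In the EC fraction, sensitive and vehicle mice again showed no called member or gene (0% of 17930 in limma; 948 genes and 1 member had an unadjusted p under 0.05), with a members' median of 0.13. Resistant mice had 22 of 41 tested members lower and 1 higher than vehicle mice, against 26.3% of all genes lower and 23.1% higher, and a median of -1.30. A gene was tested if 4 EC arrays of any treatment measured it above background. Myh2, Actn3, Mylpf, Myoz2, Mybpc1, Actn2, Myod1, Myog and Pax7 passed that filter only through the vehicle and sensitive arrays. All of them were called lower, but no resistant EC array measured them above background. Pax7 was at -6.41, -5.12, -6.09 and -5.64 in resistant mice against -1.83, -1.85, -1.43 and -1.56 in vehicle mice, at least 5.89-fold lower (adjusted p = 1.31e-07). Myod1 was at least 3.61-fold lower (adjusted p = 8.01e-08), and Tcap fell by 3.58 (SE 0.49, adjusted p = 8.52e-05). Against sensitive mice 22 members were lower and 1 higher too (27.6% of all genes lower, 21.9% higher). Both comparisons use the same resistant arrays. With the filter on every array 6 members were called against vehicle mice and 7 against sensitive mice. For Ldb3 and Pvalb, both among the lower members against vehicle mice, the second probes had differences of -0.08 and -0.02, against -2.28 and -2.35 for the probes used.

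Markers of some other cells were lower in resistant EC as well, where 26.3% of all genes were lower than in vehicle mice. Against vehicle mice 5 of 5 heart, 6 of 10 adipocyte, 4 of 7 smooth muscle and pericyte and 1 of 7 endothelial markers were lower, none of them was higher, and 0 of 6 tumour epithelial markers passed in limma. The endothelial count against vehicle mice was below the share of all genes. Against sensitive mice the same lists had 3, 6, 6, 7 and 0 lower, where 27.6% of all genes were lower. The summed level of the heart markers was 1.01 to 2.09 in resistant, 2.43 to 3.23 in vehicle and 2.60 to 3.1 in sensitive EC. The adipocyte sum was 34.2 to 59.4, 43 to 132 and 80.3 to 147 in these groups, the smooth muscle and pericyte sum 31.2 to 70.1, 46.8 to 68.1 and 75.1 to 119, and the endothelial sum 54.1 to 81.2, 60.7 to 68.9 and 78.1 to 137. Of these sums only that of the heart markers lay wholly below vehicle EC. The adipocyte, smooth muscle and pericyte, and endothelial sums overlapped with vehicle EC. Further lists went the other way or overlapped. The myoepithelial sum was 24.6 to 38.5, 16 to 22.5 and 11.3 to 22.9, and the peripheral nerve sum 11.9 to 18.8, 10.6 to 15.1 and 10.6 to 13.3. For other muscle genes the sum was 105 to 168, 52.9 to 99.4 and 61.7 to 109, although their median was lower in resistant EC (-4.81 to -4.27, against -3.61 to -2.70 in vehicle EC). Their part in the result was not tested.

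Cmya5 was the member that rose in resistant EC: 0.68, 2.69, 1.09 and 2.60 against -1.31, -2.66, -1.56 and -0.52 in vehicle mice, a difference of 3.28 (SE 0.68, adjusted p = 0.00191). Its second probe had a difference of -0.29, so the rise is that of 1 probe. The EC result depended on background correction. With normexp, 7 members were higher and 10 lower than in vehicle mice, the members' median was -0.04, the median of all genes moved from 0.10 to 0.29, and 77.2% of all calls were higher against 46.7%. Quantile scaling gave 3 higher and 14 lower members, and the deposited values 2 and 14. Against sensitive mice normexp gave 5 higher and 11 lower members, with 72.8% of all calls higher against 44.2%. On the resistant EC arrays 64.9% to 69.5% of genes were well above background, against 87.2% to 91.3% on the other EC arrays; its part in the result was not tested.

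**Figure D4:**
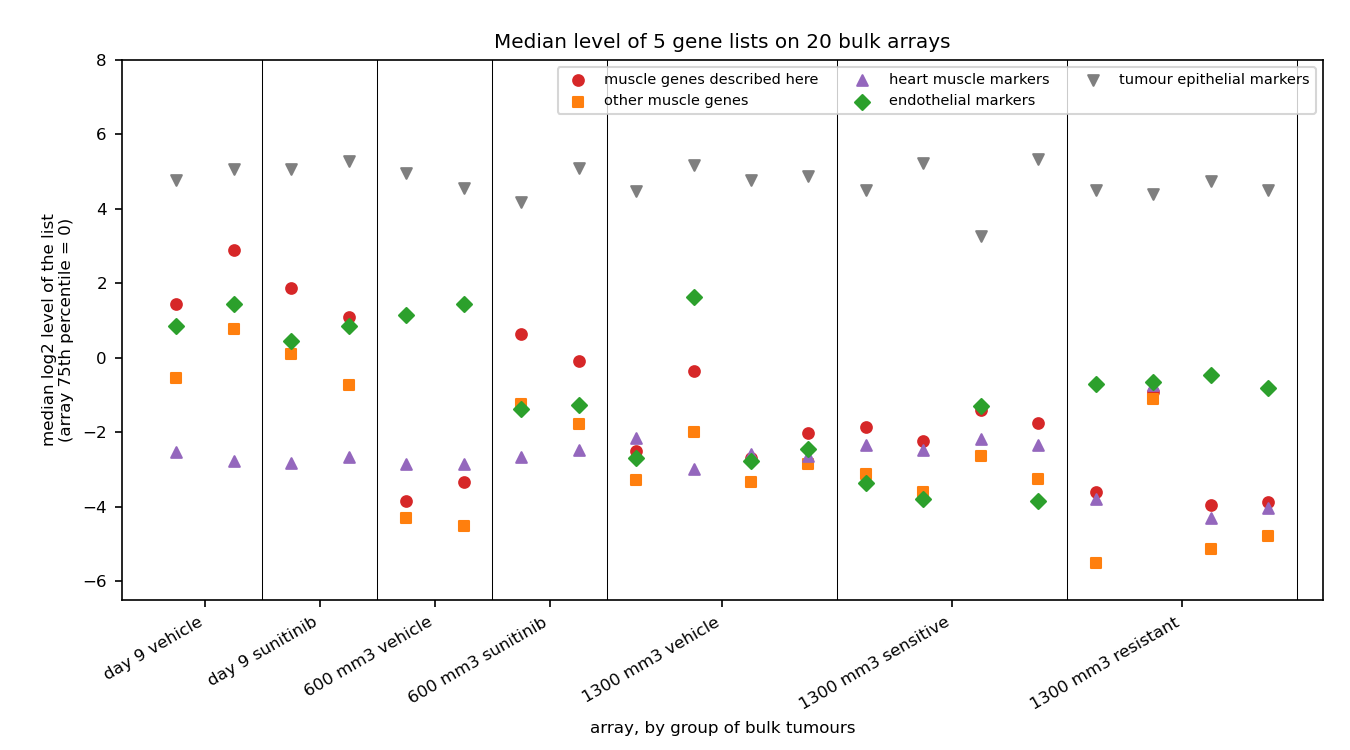
Median log2 level, relative to the array's 75th percentile, of 5 gene lists (the muscle genes described here, other muscle genes, and heart, endothelial and tumour epithelial markers) on each of the 20 bulk arrays, grouped by stage and treatment. Member medians lie between 1.11 and 2.90 at day 9, at 0.63 and -0.09 with sunitinib and -3.84 and -3.33 with vehicle at 600 mm3, and below 0 on all arrays of 1300 mm3, while epithelial medians stay above 3 throughout.

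Both fractions of the same 12 tumours were compared. In the EC fraction 6 of 42 members were higher and 9 lower than in bulk, against 23.1% of 18159 genes higher and 27.8% lower, with a median of -0.21. Members were thus called no more often than genes at large, and the counts place no muscle signal in either fraction. Tnnt3 was at -2.04, -0.65, -1.19 and -0.88 in vehicle EC against 0.10, 2.01, 0.46 and 0.44 in vehicle bulk, and over all 12 mice it fell by 1.82 (SE 0.16, adjusted p = 9.38e-06) with no overlap of the fractions. Mb, the oxygen store myoglobin, fell by 1.58 (SE 0.25, adjusted p = 0.000315), as did Eno3 (-1.36, SE 0.13, adjusted p = 1.74e-05), and also lower were Tnni2, Mybpc2, Tnnc1, Myh1, Atp2a1 and Mybpc1. Higher in EC were Pygm, muscle glycogen phosphorylase (1.17, SE 0.13, adjusted p = 4.55e-05), Pvalb (1.01), Tnnt1 (0.99) and Fbxo32 (0.30). Pax7 (adjusted p = 0.0330) and Myod1 (adjusted p = 0.0479) were called higher too, but neither was above background on any of the 8 resistant arrays, so no size is given over the 12 mice. Leaving out 1 mouse at a time lost the call of Myod1 in 10 of 12 fits, that of Pax7 in 8 and that of Fbxo32 in 1, without vehicle mouse 4. Myod1 was kept without resistant mouse 2 or vehicle mouse 4, and Pax7 without resistant mouse 2, sensitive mouse 4 or vehicle mouse 2 or 3. Myh4, below background on all resistant EC arrays (adjusted p = 0.0746), Acta1 (-0.36, adjusted p = 0.347) and Myh2 (0.09, adjusted p = 0.874) did not pass.

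Outside the resistant mice the fractions lay on different slides. In a comparison added after seeing the data, the difference was also read in the 4 resistant mice, whose fractions share a slide. There 1 member was higher, Tnnt1 by 1.47 (SE 0.44, adjusted p = 0.0304), and 5 were lower (13.9% of all genes higher, 13% lower). Again the members were called no more often than genes at large. With slide as a block over all 12 mice 6 members were called in place of 15, and Pygm had a difference of 0.00. The lower ones in resistant mice were Mb (-1.71), Tnnt3 (-1.68), Mybpc2 (-1.49), Tnnc1 (-1.43) and Eno3 (-0.86). Tnnt1 was at -0.56, 0.01, 0.18 and 0.44 in resistant EC against -1.72, -0.14, -1.91 and -2.03 in resistant bulk, higher in EC in each of the 4 mice. Without resistant mouse 2 there were 9 higher and 6 lower members, and without mouse 3 or mouse 4 there were 0 higher and 4 lower, so the Tnnt1 call was lost, as were those of Eno3 and Mb. With normexp 7 members were higher and 5 lower, and 67.6% of all calls were higher against 51.7%.

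Whether the effect of treatment differed between the fractions was tested as an interaction. For the sensitive effect 0 members and 0 genes were called in limma (0% of genes; 784 genes and 2 members had an unadjusted p under 0.05). For the resistant effect 0.303% of all genes and 0 members were called, and 2 members had an unadjusted p under 0.05. Pygm had the most negative difference of the resistant effects (-1.66, SE 0.33, adjusted p = 0.0619). The most positive was that of Ttn, which no resistant array of either fraction measured above background, so no size is given (adjusted p = 0.480). Without resistant mouse 2 the resistant effect differed for 2 members, 1 in each direction, and without sensitive mouse 4 for 1. The share of all calls that were higher was 3.64%, against 67.7% under normexp, 33.1% under quantile scaling and 19.7% in the deposited values.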

How the data were processed

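Each of 32 tumour RNA samples had 1 single-colour Agilent mouse array. Per the file headers, scanner intensity came from Feature Extraction 10.7.3.1 with the background taken off and no scaling between arrays, although the submitters' processing notes say 9.1. A deposited table over all samples also gives intensity, normalised by the authors with a method not given in the sources used here; its scale is linear and its centring unknown. The members and gene lists were chosen with earlier results of these data known, and 6 comparisons (each treatment or stage of the smaller tumours alone, their interaction, and both fractions within resistant mice) were added after seeing the data.

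Of 59305 spots that are no controls, with 5014 outlier spot values left out, 55681 probes were kept; 26582 were named through their RefSeq accession for 20145 genes (GRCm38.p6), of which 5370 have more than 1 probe. The brightest probe over all arrays stood for a gene. The log2 processed signal of each probe was taken relative to its array's 75th percentile. A gene was tested where its probe was well above background on at least 4 arrays, or 2 for the smaller tumours. Tests were made in R 4.3.3 with limma 3.58.1 (data.table package 1.17.8 for reading files), using lmFit, contrasts and eBayes, fitted over all groups of a fraction or stage, with Benjamini-Hochberg adjustment at 0.05. The scripts were tested on simulated data. All adjusted p-values are limma's, and SE is its moderated standard error. EC and bulk of a tumour share a mouse number, and mouse was a block in that comparison; over 12 mice the correlation of deviations within a mouse was -0.026 to 0.482 and highest for its own mouse in 10. No column of the deposited table was left unused.

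Alternatives were normexp background correction (offset 50, on the median signal, as the mean signal is not in the files), quantile scaling, the deposited values, no filter on dim probes, a filter on every array, the mean of all probes, leaving out each array, blocks for the replicate number and for slide. Genes named with values are the members fixed by role, every member called where under 6 were called, and otherwise the 3 largest called changes in each direction and both extremes not called; a few others were added after their values were seen. Figures were drawn with Python 3.11.15, pandas 2.3.3 and matplotlib 3.10.9.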

Additional observations from a re-analysis of the deposited data

Results flagged for a closer look

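A test for a single mouse far from the other 3 of its group (Dixon's, at the 95% level) was made 132 times on the members' values and 12 stood out; chance alone gives about 1 in 20. Resistant bulk mouse 2 of 1300 mm3 accounted for 11 of them. It had the highest member median (-0.92) of its group, and the highest level of Myh2 (-2.38), Myh7 (-0.45), Acta1 (0.07), Tnnc1 (0.50), Tnnt1 (-0.14), Trim63 (-2.26), Cox6a2 (-1.05), Myod1 (-5.05) and Myog (-5.07), the last 2 not well above background. The same mouse had the lowest Eno3 (3.34). In the EC fraction of sensitive mice, Myh7 of mouse 2 (-1.65) lay above the others.

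The sunitinib effect differed between 600 mm3 and day 9, by the interaction in limma, for Trim63 (10.63), Ttn (8.61), Myot (8.53), Myoz2 (7.60), Tcap (6.91), Actn2 (5.31) and Myh2 (5.18), each more positive at 600 mm3; the values of Trim63, Ttn, Myot and Myoz2 are fitted against vehicle arrays on which the probe was not well above background. With the mouse number as a block none of these 7 passed, and the calls of Myh2 and Actn2 were lost whichever array was left out.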

How the results depend on the processing

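The fall of the members from day 9 to 600 mm3 and their higher level with sunitinib at 600 mm3 kept their direction under all alternatives run. Of 125 results for named genes, normexp kept the direction and the call for 108, quantile scaling for 117, the deposited values for 113, no filter for 120 and the mean of all probes for 121; a filter on every array kept all 71 it left. The replicate block kept 52 of 73, no replicate block 14 of 18 and slide as a block 5 of 12; the rest lost their call. Leaving out single arrays kept 1251 of 1436 results of named genes and 185 lost their call. Reversed were Ckm (0.01) and Mylpf (0.43) in resistant EC against vehicle with normexp, Myod1 (-0.27) in EC against bulk with the deposited values and Ldb3 (-0.71) in large against small sunitinib tumours with the mean of all probes. In each case the cause was not tested.

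Genes called changed most as follows. With normexp there were 3 for the treatment averaged over small tumours, 1 at day 9 and 93 for the resistant effect set between fractions. Quantile scaling gave 2271 for resistant bulk against vehicle, 2999 against sensitive, 1 at day 9 and 151 for that resistant effect; the deposited values gave 2314, 3121, 1 and 183, with 1 for the averaged treatment and 361 for sunitinib 600 mm3 against day 9. No filter gave 483 for 600 mm3 against day 9, 156 for treatment at 600 mm3, 11 for sunitinib 600 mm3 against day 9 and 15 for the interaction. The filter on every array tests fewer genes, and gave 5125 and 5135 for resistant EC against vehicle and sensitive, 835 for resistant bulk against vehicle, 413 for sunitinib 600 mm3 against day 9 and 5 for the resistant effect set between fractions.

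Members called changed as well. The filter on every array gave 6 and 7 for resistant EC against vehicle and sensitive, 5 for resistant bulk against sensitive and 4 for the interaction. The mean of all probes gave 3 and 5 for resistant bulk against vehicle and sensitive. The interaction had 4 with the deposited values and 3 without a filter, and sunitinib 600 mm3 against day 9 had 0 without a filter. EC against bulk in resistant mice had 12 with normexp and 11 with quantile scaling, and the resistant effect set between fractions had 1 with normexp.

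At 1300 mm3, mouse numbers shared across treatments do not pair the mice (20 pairs, correlation of deviations -0.354 to 0.326, own number highest in 6). In the smaller tumours all 4 pairs had their own number highest, at 0.161 for day 9 and 0.101 for 600 mm3, where with 2 mice a group both pairs of a stage share 1 value. The fit with the replicate block was run for both: it called 475 genes for resistant bulk against vehicle, 792 against sensitive, 2 for sensitive bulk against vehicle and 3349 for large against small vehicle tumours (5 members). It called 13 members for treatment at 600 mm3, and 0 genes and 0 members for the interaction. Day 9 and 600 mm3 share no mouse number, so no such fit was possible between them. Without the replicate block of mice, EC against bulk called 8715 genes and 12 members. Slide as a block, possible only there, called 5022 genes and 6 members.

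Leaving out each array gave these ranges of genes called: 0 to 3 for sensitive bulk against vehicle, 693 to 5669 and 1108 to 6507 for resistant bulk against vehicle and sensitive, 0 to 208 for averaged treatment, 167 to 869 for 600 mm3 against day 9, 0 to 2 for treatment at day 9, 3 to 520 at 600 mm3, 0 to 380 and 78 to 311 for 600 mm3 against day 9 in sunitinib and vehicle mice, 2 to 109 for the interaction, 0 to 1 and 5 to 436 for the sensitive and resistant effects set between fractions, 2504 to 7376 for EC against bulk in resistant mice and 3094 to 6360 for large against small vehicle tumours. Members called ranged over 5 to 20 and 5 to 17 for resistant bulk, 0 to 10 for averaged treatment, 25 to 36 for 600 mm3 against day 9, 2 to 22 for treatment at 600 mm3, 0 to 3 and 19 to 34 for stage in sunitinib and vehicle mice, 1 to 8 for the interaction, 0 to 2 for the resistant effect set between fractions, 4 to 15 for EC against bulk in resistant mice and 5 to 29 for large against small vehicle tumours. Dim probes limit the resistant arrays and the vehicle arrays of 600 mm3, where some members have at most a bound in place of a measured size.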
